A study of Mus musculus with 16 samples.

Results

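The nuclear genes of the 5 complexes of oxidative phosphorylation were followed in sorted colonic epithelium. They were found by symbol: names beginning with Nduf and a, b, c, s or v and a number, Sdha to Sdhd, and names beginning with Uqcr, Cox4 to Cox8 or Atp5. Of 22396 gene symbols, 84 matched, and 83 of them are subunits or their tissue paralogs: 35 of complex I, 4 of complex II, 8 of complex III, 20 of complex IV and 16 of complex V (ATP synthase). The remaining match, Atp5s, is not a subunit and was kept apart. Ndufa4 and Ndufa4l2 were placed with complex IV.

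EpCAM+ (epithelial) cells were sorted from digested distal colonic mucosa of 16 mice, with a separate RNA library for every mouse. All mice carried the floxed allele Tnfr2-f/f of the gene of TNFR2. The controls had no other allele, and the mice labelled knockout were Vil1::Cre;Tnfr2-f/f, in which the villin promoter drives Cre in intestinal epithelium. Water was given to 4 controls and 5 mice labelled knockout. Dextran sulfate sodium (DSS), which injures the colonic epithelium, was given in the drinking water for 6 days to 3 controls and 4 mice labelled knockout, and mice were dissected 12 days after the start. DSS was 3% by the labels and 3.5% by the study's methods, in mice of 8 weeks, and the uninjured mice are also described as day 0. By the study's methods the DSS samples came from injured colon that had been parted from unaffected colon, so region and treatment cannot be told apart. Water-treated mice were 4 males of cage a and 5 females of cage b, and DSS-treated mice were all females, 2 of cage c and 5 of cage d, so treatment and cage cannot be told apart. Tnfrsf1b, the floxed gene, was listed at 9.82 to 16.4 rescaled TPM in water-treated mice labelled knockout and at 12.2 to 17.0 in their controls, and at 11.3 to 22.7 against 10.8 to 19.3 after DSS. The groups overlapped in both treatments. The values sum whole transcripts, and a deleted exon would not by itself lower them, so this is no check of the deletion. The study assessed TNFR2 in EpCAM+ cells by flow cytometry and qPCR, which were not analysed here.

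Complex I (NADH dehydrogenase) and complex II (succinate dehydrogenase) feed electrons to ubiquinone, complex III passes them to cytochrome c, and complex IV (cytochrome c oxidase) passes them to oxygen. Complexes I, III and IV pump protons, and complex V uses the proton gradient to make ATP. Most subunits are encoded in the nucleus and the others in mitochondrial DNA, so both genomes have to supply parts of the same complexes. Differentiated colonocytes are known for a high use of mitochondrial respiration, with butyrate as a fuel.

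Promoters of nuclear subunit genes often hold sites for the transcription factors NRF1, GABP (an ETS factor) and YY1. RefSeq promoter windows (GRCm38.p6, 250 bases before to 50 bases after a start) were matched for 67 of the 83 subunit genes. Searched on both strands, the NRF1 letters GCGCATGC were found in 10 of the 67 genes (14.9%), against 3.05% of all 27025 genes with a window. The ETS letters CCGGAAG were found in 16 (23.9%, against 9.93%) and the YY1 letters AANATGGCG in 10 (14.9%, against 2.76%). At least 1 of the motifs was found in 30 genes (44.8%, against 14.4%). A match of letters is no evidence of binding. Of the YY1 matches, 7 were in complex I genes and 3 in complex V genes. The 5 promoters printed here are those of Cox7a1, Ndufa6 and Ndufb8, whose RNA was lowest after DSS relative to water among genes without overlap in mice labelled knockout, of Cox7a2 as the paralog of Cox7a1, and of Uqcr11, which had the smallest unadjusted p between genotypes. Capitals mark motif matches.
Cox7a1 promoter, chr7:30183921-30184220, plus strand: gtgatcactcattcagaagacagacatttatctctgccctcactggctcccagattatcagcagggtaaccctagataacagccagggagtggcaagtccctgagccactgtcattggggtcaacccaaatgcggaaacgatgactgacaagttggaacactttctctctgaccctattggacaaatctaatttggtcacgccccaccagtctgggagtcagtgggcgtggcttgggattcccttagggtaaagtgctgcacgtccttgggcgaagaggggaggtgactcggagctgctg
Cox7a2 promoter, chr9:79759804-79760103, minus strand: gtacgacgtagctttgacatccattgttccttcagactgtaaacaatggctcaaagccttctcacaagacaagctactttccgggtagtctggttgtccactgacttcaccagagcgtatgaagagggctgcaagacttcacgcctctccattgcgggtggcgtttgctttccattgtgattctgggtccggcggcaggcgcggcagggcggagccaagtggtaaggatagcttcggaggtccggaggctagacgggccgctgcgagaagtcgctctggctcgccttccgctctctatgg
Ndufa6 promoter, chr15:82354242-82354541, minus strand: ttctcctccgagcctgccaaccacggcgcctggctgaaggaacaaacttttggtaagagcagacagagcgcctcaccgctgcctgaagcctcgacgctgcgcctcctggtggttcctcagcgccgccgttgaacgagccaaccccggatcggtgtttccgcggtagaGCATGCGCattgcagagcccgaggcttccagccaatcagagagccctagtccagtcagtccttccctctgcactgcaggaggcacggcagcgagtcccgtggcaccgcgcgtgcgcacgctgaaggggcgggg
Ndufb8 promoter, chr19:44555393-44555692, minus strand: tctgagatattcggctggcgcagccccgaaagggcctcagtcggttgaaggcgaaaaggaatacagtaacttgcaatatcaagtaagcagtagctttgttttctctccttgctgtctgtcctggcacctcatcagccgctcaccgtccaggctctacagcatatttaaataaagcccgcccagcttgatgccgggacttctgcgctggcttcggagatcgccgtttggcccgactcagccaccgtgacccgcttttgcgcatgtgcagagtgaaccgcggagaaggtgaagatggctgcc
Uqcr11 promoter, chr10:80406772-80407071, minus strand: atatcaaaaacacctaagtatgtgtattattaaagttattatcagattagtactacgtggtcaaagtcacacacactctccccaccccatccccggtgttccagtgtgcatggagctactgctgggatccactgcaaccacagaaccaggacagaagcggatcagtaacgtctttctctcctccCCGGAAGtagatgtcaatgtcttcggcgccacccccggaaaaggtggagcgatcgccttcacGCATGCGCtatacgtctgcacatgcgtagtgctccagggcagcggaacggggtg
The window of Ndufa6 held 1 NRF1 match, and that of Uqcr11 held 1 NRF1 and 1 ETS match. None of the searched letters were in the windows of Cox7a1, Cox7a2 and Ndufb8.

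Subunit RNAs were among the most abundant in these cells. Levels are in TPM, a unit of transcript abundance per length and per library. Since the water and DSS tables were normalized separately by the authors, the TPM of each mouse was divided by a median-of-ratios factor over all 16 mice (0.905 to 0.940 in water-treated and 1.13 to 1.24 in DSS-treated mice), and the results are called rescaled TPM. The mean over 16 mice was at least 1 TPM for 77 subunit genes, and 6 were below. Among 11247 genes at or above 1 TPM, the median subunit gene stood at the 95.8th percentile, and 57 of 77 were in the top 10%. The mean was above 100 rescaled TPM for 45 subunit genes.

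Levels within a complex were far from equal. In complex I the highest was Ndufb9, an accessory subunit, with a mean of 249 rescaled TPM over the 16 mice, and the lowest was Ndufa3 at 1.55. In complex II Sdhd, a membrane anchor, was at 191 and Sdhc, the other anchor, at 20.1. In complex III the highest was Uqcrh, the hinge protein, at 557 and the lowest Uqcrc1, a core protein, at 69.1. In complex IV the highest was Cox8a at 680, and in complex V it was Atp5b, the catalytic beta subunit, at 699. The lowest were Cox6b2, the testis form of Cox6b, at 3.16 and Atp5j2 at 6.71. The median member of complex I had a mean of 69.6 rescaled TPM, against 133 in complex II, 271 in III, 273 in IV and 318 in V. Among the core subunits of complex I, which carry the electron path, Ndufv2 was at 4.43. Only transcripts annotated as principal were listed, and the part of this selection in the low values was not tested. By the listed transcript with the smallest share, 18 subunit genes shared over 20% of their 31-base windows with other genes. Atp5g2, Atp5h, Atp5l, Cox7c and Uqcrb shared over 50%, so their levels are uncertain. This count can pass over a gene whose main transcripts are shared. The main transcripts of Atp5g1, of 596 and 691 bases, shared 67.3% and 57.6%, so its level is uncertain too. The main transcripts of Ndufb2 and Cox6c shared 32.2% and 28.1%.

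**Figure D1:**
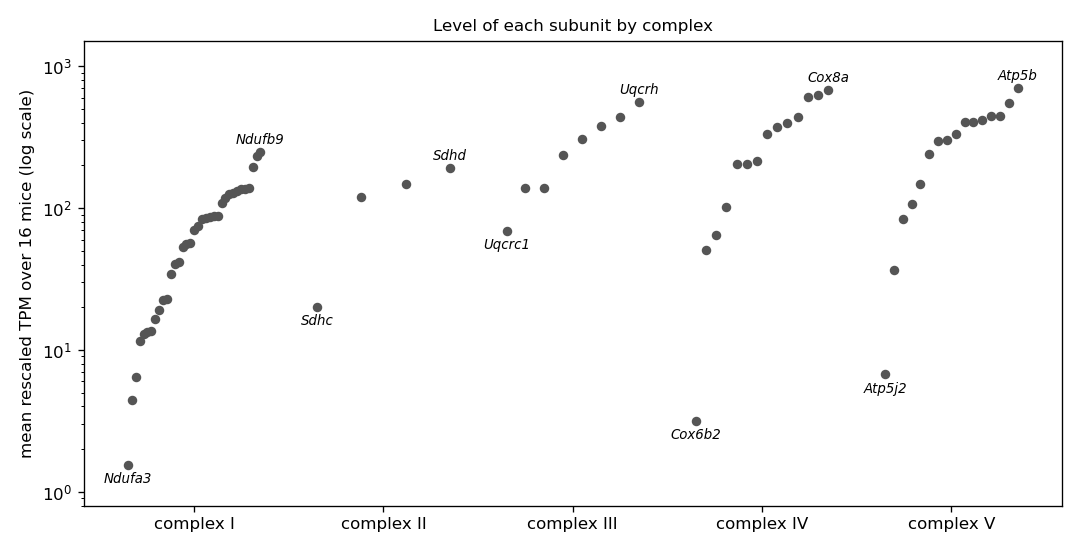
Mean rescaled TPM over 16 mice (y axis, log scale) of the 77 subunit genes that averaged 1 TPM or more, ordered within each complex (x axis). Each point is a gene and the highest and lowest of each complex are named, from Atp5b at 699 to Ndufa3 at 1.55.

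Among paralogs, 1 form usually made nearly all of the RNA. Cox4i1, the general form of the Cox4 subunit, made 99.3% to 100% of the pair with Cox4i2, the form known from lung and low oxygen, in every mouse. Cox6a2, a heart and skeletal muscle form, was listed at 0 in all 7 DSS-treated mice and reached 0.889 rescaled TPM in water-treated mice. Cox7b2 and Cox8c were listed at 0 in all 16 mice. Ndufa4 made 99.2% to 100% of the pair with Ndufa4l2, a form induced by low oxygen. The exceptions were the Cox7a group and the c subunit of complex V. Cox7a1, the heart and skeletal muscle form, made 8.80% to 17.9% of the summed TPM of Cox7a1, Cox7a2 and Cox7a2l in water-treated mice and 3.76% to 9.38% in DSS-treated mice. The 3 genes of the c subunit of ATP synthase encode the same mature protein. Atp5g3 made 50.8% to 60.4% of their sum, Atp5g1 25.3% to 34.4% and Atp5g2 8.64% to 20.5%. In mice labelled knockout the Atp5g1 share was 30.9% to 34.4% with water and 25.8% to 29.0% after DSS, without overlap, while in controls it overlapped. The shares of Atp5g2 and Atp5g3 overlapped between treatments in both genotypes.

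Within each treatment the genotypes were tested against each other by limma on log2(TPM + 1), with p-values adjusted by Benjamini-Hochberg over all genes tested. No subunit gene was called at an adjusted p under 0.05 in either treatment. In water-treated mice limma called 0 of the 78 subunit genes tested, while 0.00905% of the 11046 genes tested were called. At an unadjusted p under 0.05 were 3 of the 78 and 583 of the 11046, so the subunit genes held no larger share. The smallest adjusted p of a subunit gene was 0.865. The estimates leaned to one side: 73 of 78 were above 0 in mice labelled knockout, with a median log2 fold change of 0.14, while 50.2% of all genes were above 0 with a median of 0.0015. All 16 genes of complex V, 8 of complex III and 4 of complex II had estimates above 0, with 32 of 35 in complex I and 13 of 15 in complex IV. The genes share the same libraries and are not independent replicates, so these counts are descriptions. By mouse, the summed rescaled TPM of all subunits overlapped, at 13365 to 16007 in controls and 14327 to 17455 in mice labelled knockout. Within cages the median was 0.13 in cage a (males) and 0.17 in cage b (females). With quantile normalization only 38 of 78 were above 0. No subunit gene was without overlap between genotypes, against 0.67% of all genes higher and 0.878% lower in mice labelled knockout.

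Uqcr11, a small accessory subunit of complex III, had the smallest unadjusted p in water-treated mice. Its rescaled TPM was 341, 265, 322 and 288 in controls and 420, 418, 424, 401 and 327 in mice labelled knockout. The groups overlapped only through the lowest of the mice labelled knockout, which lay below the highest control. The log2 fold change on deposited TPM was 0.39 (SE 0.12, n = 4 and 5, limma adjusted p = 0.865, exact two-sided permutation p = 0.0317, where the smallest possible is 0.00794). The others with an unadjusted p under 0.05 were Ndufs6 (log2 fold change 0.21, SE 0.09) and Ndufs8 (0.23, SE 0.10), both of complex I. These 3 genes are named because their count is small, after their values were seen.

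The largest estimates came from genes with a wide spread. Ndufc1, an accessory subunit of complex I, had a log2 fold change of 0.94 (SE 1.35), with 15.4, 1.01, 68.2 and 0 rescaled TPM in water-treated controls and 10.2, 0.658, 19.7, 64.2 and 16.9 in mice labelled knockout. Ndufs7, a core subunit of complex I, had 0.87 (SE 0.53). Cox6b2 had a log2 fold change of -0.69 (SE 0.59) and Ndufs4, an accessory subunit of complex I, of -0.26 (SE 0.29). None of these exceeded the spread between mice. Ndufc1 had 2 listed transcripts, and the one of 315 bases was above 1 rescaled TPM in 2 of 4 controls and 4 of 5 mice labelled knockout with water, and at 0 in all 7 DSS-treated mice.

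After DSS limma called 0 of the 77 subunit genes tested, while 0.00918% of 10899 genes were called. At an unadjusted p under 0.05 were 0 of the 77 and 289 of the 10899. Estimates were above 0 in 22 of 77, with a median log2 fold change of -0.06, against 52.8% and 0.02 over all genes. Without DSS-treated control 3 the count was 50 of 77 and the median 0.06, so the direction rested on that mouse. Within cages the median was -0.23 in cage c (1 mouse of each genotype) and 0.01 in cage d (2 controls and 3 mice labelled knockout). No subunit gene was without overlap, against 2.13% of all genes higher and 1.55% lower in mice labelled knockout. The largest estimates were Cox6b2 at 1.28 (SE 0.71) and Atp5j2 at 0.70 (SE 0.31), and the lowest Cox7a1 at -0.57 (SE 0.28) and Ndufc1 at -0.51 (SE 0.35). Cox7a1 was at 40.8, 27.2 and 41.4 rescaled TPM in DSS-treated controls and 34.4, 15.8, 22.1 and 26 in mice labelled knockout, and the groups overlapped (exact two-sided permutation p = 0.114, where the smallest possible is 0.0286).

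DSS-treated and water-treated mice were set side by side without a test, because their tables were normalized separately. On rescaled TPM, Cox7a1 and 13 of 35 genes of complex I, 12 of them accessory subunits, were lower without overlap after DSS in mice labelled knockout. So were 4 of 8 genes of complex III, a larger share. On rescaled TPM, 25 of 77 subunit genes were lower in all 4 DSS-treated than in all 5 water-treated mice labelled knockout, and 2 were higher. Over all 11247 genes, 17.8% were lower and 17.4% higher without overlap. The 25 were 13 of complex I (37.1% of its genes), 5 of complex IV (35.7%), 4 of complex III (50%), 2 of complex V (12.5%) and 1 of complex II (25%). Of the 28 accessory genes of complex I 12 were among them, and of the 7 core genes 1. In controls 3 were lower (background 13.9%) and 3 higher (background 10.7%). The median log2 difference was -0.21 in mice labelled knockout and -0.04 in controls, against 0.00 and 0.02 over all genes.

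The sign of that median depended on the scaling. On TPM as deposited it was 0.15 in mice labelled knockout and 0.32 in controls, while the median of all genes was 0.31 and 0.32. Scaling each mouse to the same total TPM gave 0.36 and 0.17, with 0.48 and 0.19 over all genes. Quantile normalization gave 0.34 and 0.41, with 0.18 over all genes in both genotypes, so with this scaling the subunits stood above the other genes. The number of genes lower without overlap in mice labelled knockout went from 25 to 4 on TPM as deposited, 0 at the same total, 8 at the same total without immunoglobulin and mitochondrially encoded genes, and 7 with quantile normalization. Of all genes 10.1%, 6.62%, 10.8% and 12.9% were lower without overlap under these 4 scalings, against 17.8% on rescaled TPM. No direction is therefore given for the family as a whole, and the levels of single genes that follow are on rescaled TPM. Fewer or other cells in the sort and less RNA per cell cannot be told apart in these bulk samples.

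**Figure D2:**
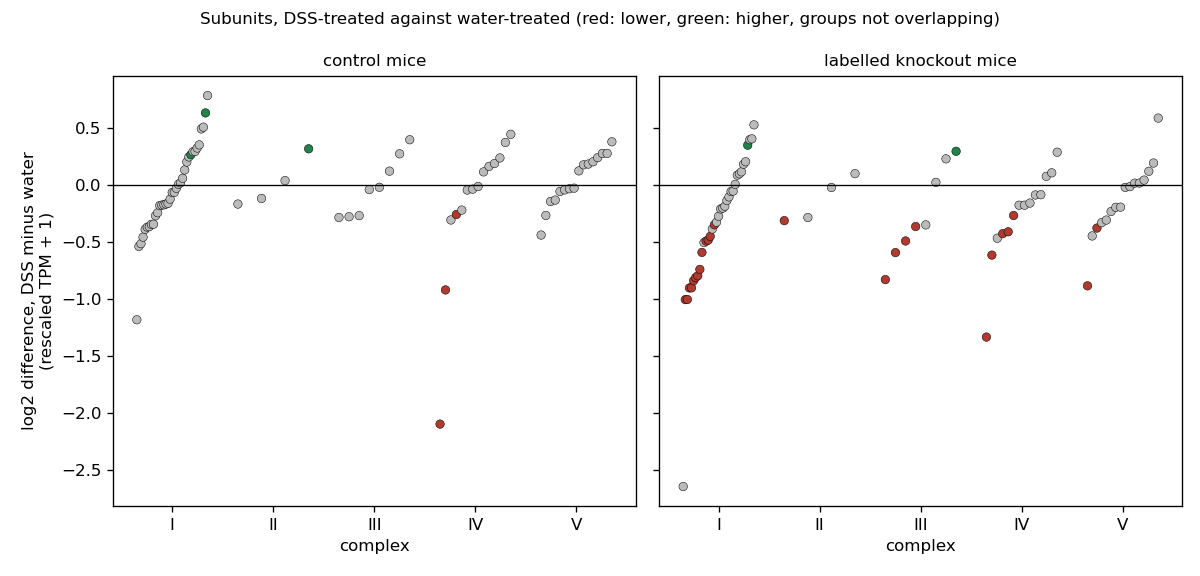
Log2 difference of DSS-treated minus water-treated mice (y axis, rescaled TPM + 1) for 77 subunit genes by complex (x axis), in controls (left) and mice labelled knockout (right). Red points are lower and green points higher in every DSS-treated than in every water-treated mouse, 3 and 3 genes in controls and 25 and 2 in mice labelled knockout.

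DSS-treated control 3 stood apart from the other 6 DSS-treated mice. Of the 25 genes that were lower in mice labelled knockout, it was above all other DSS-treated mice in 24 and within or above the range of the 9 water-treated mice in 24. Without it, 27 subunit genes were lower and 9 higher in DSS-treated controls, where 25.9% and 25.0% of all genes were. Of the 27, 18 were among the 25 of the mice labelled knockout (66.7% of the one list and 72.0% of the other). The sharing over all genes is not given here, so these shares have no background. Across all 11247 genes, its deviation from the other DSS-treated mice had a rank correlation of 0.66 with the GC content of the transcript, while in the other 6 this lay between -0.41 and 0.21. Control 3 was of cage c, and the value of 0.21 was that of its only cage mate, a mouse labelled knockout. The median deviation of the subunit genes was 0.31 in control 3, 0.08 in its cage mate and -0.12 to -0.00054 in the mice of cage d. Mouse and cage cannot be told apart here.

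Base composition moved with the difference between treatments. Across the 77 subunit genes the rank correlation of the log2 difference with transcript GC was -0.53 in mice labelled knockout and -0.48 in controls, and across all genes -0.46 and -0.39. Genes are not independent replicates and share the same libraries, so these are descriptions. In mice labelled knockout the subunit genes with a GC content of 42.0% to 49.1% had a median log2 difference of 0.01 and those with 54.0% to 60.4% of -0.49. After the median of each of 20 GC bins was centred in each mouse, 13 of 77 subunit genes (16.9%) were lower without overlap in mice labelled knockout, close to the 14.7% of all genes, and 10 of them were from the 25. These 10 were Atp5d, Cox7a1, Cox7a2l, Ndufa1, Ndufa13, Ndufa6, Ndufb10, Ndufb3, Ndufb8 and Uqcrh. Complex I held 6 of the 13 (17.1% of its genes), all of them accessory. Complexes IV, V, III and II held 3, 2, 1 and 1 (21.4%, 12.5%, 12.5% and 25%). The part of base composition in the result was not tested further.

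**Figure D3:**
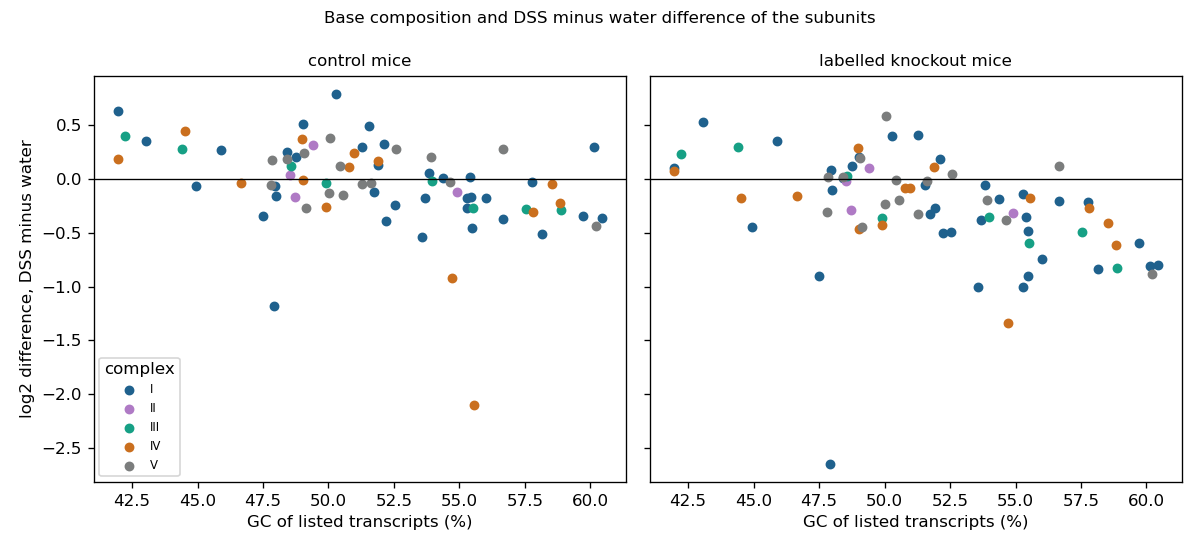
GC content of the listed transcripts (x axis, percent) against the log2 difference of DSS-treated minus water-treated mice (y axis) for 77 subunit genes coloured by complex, in controls (left) and mice labelled knockout (right). Genes of higher GC had lower differences, with rank correlations of -0.48 and -0.53.

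The summed TPM of complex I relative to complex V does not change when all values of a mouse are divided by 1 factor, but it can change with quantile normalization or GC centring, for which it was not computed. The ratio was 0.625, 0.567, 0.547 and 0.591 in water-treated controls and 0.592, 0.584, 0.569, 0.620 and 0.564 in water-treated mice labelled knockout. After DSS it was 0.483, 0.478, 0.467 and 0.498 in mice labelled knockout, below all 9 water-treated mice, and 0.495, 0.498 and 0.570 in controls, of which control 3 lay within the range of the water-treated mice. Complex I made 19.3% ± 0.502 (SD, n = 5) of the summed nuclear subunit TPM in water-treated and 16.8% ± 0.621 (SD, n = 4) in DSS-treated mice labelled knockout. Complex V made 33.0% ± 0.524 and 34.8% ± 0.507. The complex I sum itself was 2708 to 3394 rescaled TPM with water and 2057 to 2436 after DSS in mice labelled knockout, and 2565 to 3245 and 2208 to 3064 in controls, where the groups overlapped. This ratio was chosen after the values were seen.

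**Figure D4:**
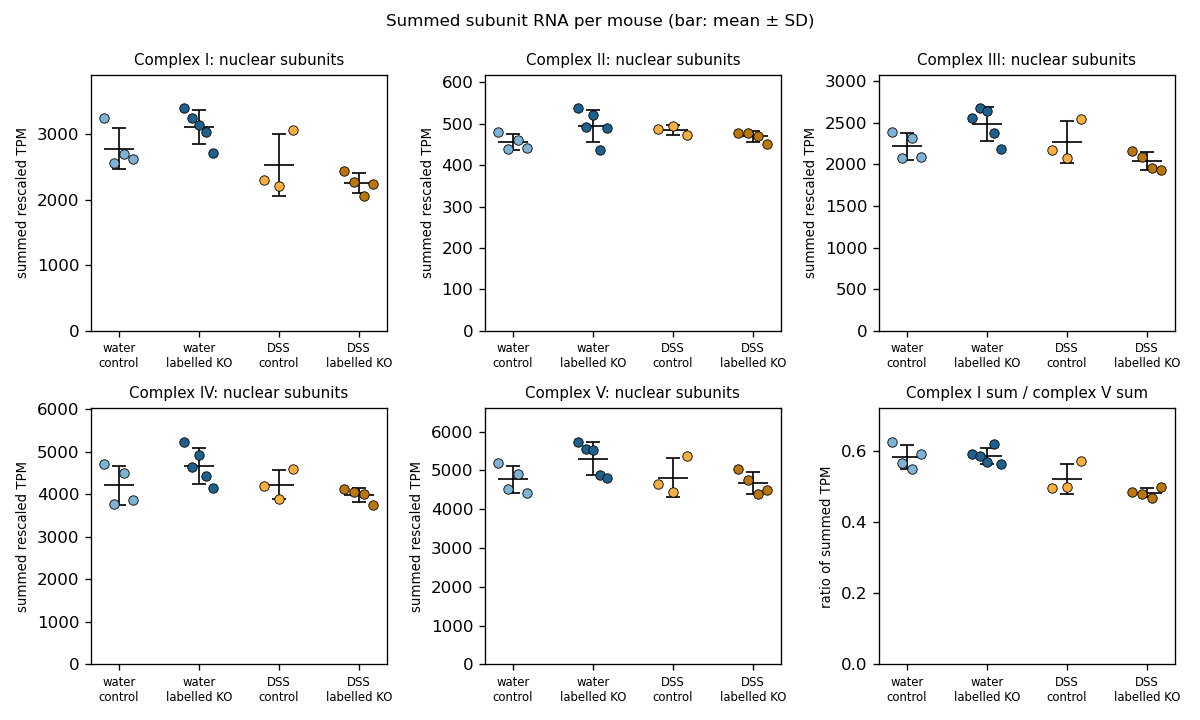
Summed rescaled TPM of the nuclear subunits of complexes I to V and the ratio of the complex I to the complex V sum (y axes) for each of 16 mice in 4 groups (x axes, KO for knockout), with bars for the mean and SD. The complex I to V ratio lies between 0.467 and 0.498 in DSS-treated mice labelled knockout and between 0.547 and 0.625 in water-treated mice.

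Complex I held 13 of the 25 genes that were lower in mice labelled knockout, and its median log2 difference there was -0.28, against -0.36 in complex III, -0.18 in IV, -0.16 in II and -0.11 in V. With GC centring these medians were -0.14 in complex I, -0.14 in III, -0.04 in IV, -0.04 in II and -0.10 in V. Ndufa6, an accessory subunit, was at 271, 211, 215, 209 and 273 rescaled TPM in water-treated mice labelled knockout and at 133, 120, 91.0 and 126 after DSS. In controls it was at 281, 184, 260 and 222 with water and 147, 120 and 233 after DSS, where control 3 overlapped the water-treated mice. The log2 difference was -1.0 (SE 0.15) in mice labelled knockout and -0.54 (SE 0.29) in controls. Ndufb10, also accessory, was at 187, 185, 185, 150 and 173 with water and 106, 93.9, 77.2 and 98.7 after DSS in mice labelled knockout, a log2 difference of -0.90 (SE 0.11). In controls it was at 180, 133, 165 and 133 and at 101, 70.3 and 186, and control 3 was the highest of the 7. Ndufb8 had a log2 difference of -1.01 (SE 0.19) in mice labelled knockout, with 125 to 211 rescaled TPM with water and 68.7 to 101 after DSS. In controls it was at 217, 145, 61.2 and 143 with water and 72.5, 114 and 146 after DSS, which overlapped. After GC centring the differences of Ndufa6, Ndufb8 and Ndufb10 in mice labelled knockout were -0.77, -0.68 and -0.57, still without overlap.

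Ndufs1, the largest core subunit of complex I, moved the other way. It was at 51.5, 49.7, 50.2 and 51.1 rescaled TPM in water-treated controls and 63.7, 67.3 and 52.7 after DSS, and at 45.5, 56.0, 49.0, 48.0 and 53.6 and 68.2, 60.6, 64.3 and 63.7 in mice labelled knockout. The groups did not overlap in either genotype, with log2 differences of 0.26 (SE 0.09) and 0.35 (SE 0.07). After GC centring these were 0.05 and 0.07, and the groups overlapped. Ndufv2, a core subunit that was low throughout, was higher without overlap in controls, with a log2 difference of 0.63 (SE 0.15). Its groups overlapped in mice labelled knockout, and in controls after GC centring.

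The genes of complex II differed in sign within each genotype. Sdha, the flavoprotein, was between 107 and 128 rescaled TPM in all 16 mice, with log2 differences of 0.04 (SE 0.07) in controls and -0.02 (SE 0.05) in mice labelled knockout. Sdhb, the iron-sulfur subunit, was lower without overlap in mice labelled knockout (-0.31, SE 0.07) and 0.02 after GC centring, when its groups overlapped. Sdhd was at 175, 176, 165 and 156 in water-treated controls and 205, 230 and 194 after DSS, which did not overlap, with a log2 difference of 0.31 (SE 0.08) and 0.32 after GC centring. In mice labelled knockout it was 0.10 (SE 0.07) and the groups overlapped. Sdhc differed by -0.17 (SE 0.10) in controls and -0.29 (SE 0.09) in mice labelled knockout, with overlap in both, and by -0.37 without overlap in the latter after GC centring.

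In complex III the core protein Uqcrc2 was higher without overlap in mice labelled knockout, with a log2 difference of 0.29 (SE 0.05), but -0.06 after GC centring. Uqcrh was at 653, 655, 648, 589 and 567 rescaled TPM with water and 498, 531, 470 and 433 after DSS in mice labelled knockout, a log2 difference of -0.37 (SE 0.07) that was -0.36 after GC centring and 0.21 at the same total TPM. In controls it was -0.04 (SE 0.10) and the groups overlapped. Uqcr11 was at 269, 200, 183 and 248 after DSS in mice labelled knockout, all below the water-treated mice of that genotype, with a log2 difference of -0.83 (SE 0.14). After GC centring this was -0.32 and the groups overlapped. In DSS-treated controls it was at 172, 211 and 418, where control 3 lay above the 4 water-treated controls.

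In complex IV the Cox7a genes parted. Cox7a1 was at 64.6, 67.3, 92.8 and 55.1 rescaled TPM in water-treated controls and 40.8, 27.2 and 41.4 after DSS, and at 88.8, 43.3, 90.2, 41.2 and 59.9 and 34.4, 15.8, 22.1 and 26 in mice labelled knockout. All DSS-treated mice of a genotype lay below all its water-treated mice, control 3 included. The log2 difference was -0.92 (SE 0.25) in controls and -1.33 (SE 0.34) in mice labelled knockout, and -0.76 and -1.06 after GC centring. Cox7a2, the general form, differed by 0.16 (SE 0.22) and 0.10 (SE 0.13), with overlap. The ratio of Cox7a1 to Cox7a2, which needs no scaling, was 0.188 to 0.518 in the 9 water-treated mice and 0.0717 to 0.210 in the 7 DSS-treated mice, and within a genotype the groups did not overlap. Cox7a2l, which takes part in assembling complexes III and IV into supercomplexes, was lower without overlap in both genotypes, by -0.26 (SE 0.06) and -0.43 (SE 0.08). On TPM as deposited the Cox7a2l difference in controls was 0.09, and at the same total TPM that in mice labelled knockout was 0.14. Cox6b2 was lower in controls, from 3.72 to 8.55 to at most 1.36 rescaled TPM, and overlapped in mice labelled knockout.

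**Figure D5:**
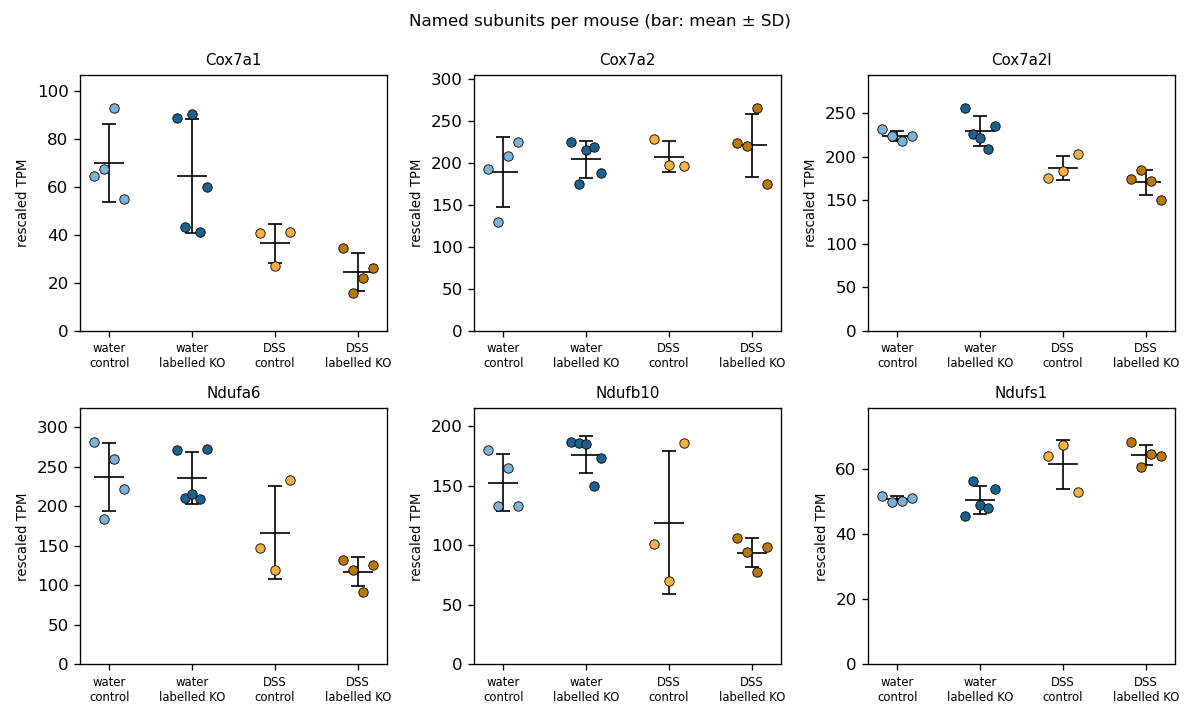
Rescaled TPM (y axes) of Cox7a1, Cox7a2, Cox7a2l, Ndufa6, Ndufb10 and Ndufs1 in each of 16 mice by group (x axes, KO for knockout), with bars for the mean and SD. Cox7a1 lies between 15.8 and 41.4 in DSS-treated and between 41.2 and 92.8 in water-treated mice, and 1 DSS-treated control is at 186 for Ndufb10, level with the highest water-treated mice.

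In complex V 2 of 16 genes (12.5%, against 17.8% of all genes) were lower without overlap in mice labelled knockout: Atp5d, the delta subunit, with a log2 difference of -0.89 (SE 0.14), and Atp5e, the epsilon subunit, with -0.38 (SE 0.09). After GC centring they were at -0.37, still without overlap, and -0.11, with overlap. The beta subunit Atp5b differed by -0.02 (SE 0.09) in mice labelled knockout and -0.04 (SE 0.09) in controls. Atp5g3, Atp5g1 and Atp5g2 differed by -0.02, -0.33 and 0.12 in mice labelled knockout, with overlap.

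Leukocyte markers were lower after DSS without overlap, while the ranges of the other marker lists overlapped between treatments. The median of the endothelial markers was higher after DSS, at 1.55 against 1.19 with water. The mean log2(rescaled TPM + 1) of 9 epithelial markers was 8.36 to 8.74 in water-treated and 8.27 to 8.60 in DSS-treated mice. For 15 leukocyte markers it was 3.93 to 5.32 and 0.96 to 1.99, for 8 fibroblast markers 4.61 to 6.21 and 3.31 to 5.43, for 5 smooth muscle and pericyte markers 2.31 to 2.90 and 1.56 to 2.75, and for 4 endothelial markers 0.81 to 2.37 and 0.76 to 1.74. The summed rescaled TPM of the leukocyte markers was 1717 to 16365 with water and 22.7 to 427 after DSS, and that of the fibroblast markers 337 to 1024 and 109 to 497. No marker found was at 0 in all mice of a treatment, and 1 smooth muscle marker was not listed. Their part in the differences between treatments was not tested.

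Of 13 mitochondrially encoded subunits, all had a difference above 0 on rescaled TPM in both genotypes, with medians of 0.73 in controls and 0.79 in mice labelled knockout, and 2 and 7 were higher without overlap, against 10.7% and 17.4% of all genes. Their summed TPM was 5.91 to 13.9 times the nuclear subunit sum in water-treated and 9.46 to 18.7 times in DSS-treated mice, so the groups overlapped. Libraries were selected for poly(A) RNA. Of 44 assembly factors at or above 1 TPM, 33 had a difference above 0 in controls and 27 in mice labelled knockout, and 6 in each genotype were higher without overlap, where 10.7% and 17.4% of all genes were. Lower without overlap were 2, both in mice labelled knockout, against 17.8% of all genes there and 13.9% in controls. Of all 11247 genes, 5777 had a difference above 0 in controls and 5644 in mice labelled knockout. Lrpprc, which stabilises mitochondrial mRNA, was at 11.2 to 14.8 rescaled TPM in water-treated and 15.9 to 26.8 in DSS-treated mice. Cox17, a copper chaperone of complex IV, was lower without overlap in mice labelled knockout, with a log2 difference of -0.61. Of 13 regulators of mitochondrial genes, 10 had a difference above 0 in each genotype. Without overlap, 3 in controls and 6 in mice labelled knockout were higher, against 10.7% and 17.4% of all genes. In the same order 0 and 1 were lower, against 13.9% and 17.8%. Yy1 was at 9.63 to 13.7 rescaled TPM in water-treated and 17.9 to 20.6 in DSS-treated mice, without overlap. Esrra, a nuclear receptor of respiratory genes, was lower without overlap in mice labelled knockout, with a log2 difference of -0.72, and overlapped in controls. Cycs, cytochrome c, was at 13.0 to 22.7 rescaled TPM with water and 34.0 to 57.8 after DSS except in 1 control at 14.4. It is 1 of 5 subunits and carriers whose symbols fall outside the name pattern. Of these, 5 had a difference above 0 in controls and 4 in mice labelled knockout. Higher without overlap were 2 and 1, against 10.7% and 17.4% of all genes. No gene of these lists was called between genotypes by limma in either treatment. The differences of these lists are given without GC centring. Among the assembly factors higher without overlap in mice labelled knockout, it turned Ndufaf4 from 0.43 to -0.20 and Tmem126b from 0.25 to -0.04. Acad9 went from 0.55 to 0.43. The part of base composition in these lists was not tested.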

How the data were processed

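The data are RNA levels in EpCAM+ cells sorted from distal colon (16 mice), and group, cage and sex come from the sample labels. Stranded poly(A) libraries gave 75-base single reads, which the authors passed to kallisto for quantification and to sleuth for their own genotype tests. The submitters' processing notes name the build mm10. The authors deposited TPM per transcript and mouse in 2 tables, one per treatment, each normalized separately. Each has 29373 lines, of which 385 repeat another and were dropped, leaving 28988 transcripts, all annotated as principal, and without the other isoforms the values of a mouse sum to 487469 to 861109 TPM. The deposited p-values, q-values and log2 ratio columns hold the authors' own comparisons and were not used.

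TPM was summed per gene symbol. For genotype, limma 3.58.1 (R 4.3.3) with a variance trend was fitted to log2(TPM + 1) of all genes averaging 1 TPM or more in a table, and a Benjamini-Hochberg adjusted p under 0.05 was called. A fold change on this scale understates that of low genes. Single genes were also tested by exact permutation of mice between genotypes (two-sided). The limma step was tested on simulated data. No test was run between the tables. All 112 member transcripts were found in GENCODE M21 (GRCm38), 105 with the same version. TPM keeps no read depth, so the number of mice sets the precision, and p-values measure the spread between mice.

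The members and lists were chosen with earlier results of these data known. The named subunits were the highest and lowest of each complex, the paralog groups, complex II, the 2 highest and 2 lowest fold changes per genotype comparison, and the 4 largest rises and falls without overlap per genotype. Other genes were named after their values were seen. Alternatives were other pseudocounts, filters, scalings, cage as a covariate, the replicate number as a block, and leaving out each mouse. Centring of GC bins, females only, and the counts of estimates above 0 and of genes without overlap were added after seeing the data. Python 3.11.15, numpy 2.4.6, pandas 2.3.3, scipy 1.17.1 and matplotlib 3.10.9 were used.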

Additional observations from a re-analysis of the deposited data

Results flagged for a closer look

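Within groups of 4 or 5 mice, 5 of 111 values of complex sums and named subunits had a mouse far from the others by Dixon's criterion, and chance gives about 1 in 20. Cox6b2 was at 8.55 rescaled TPM in 1 water-treated control, against 3.72 to 3.84 in the other 3. In water-treated mice labelled knockout it was at 10.5 in 1 mouse, against 0 to 2.98 in the others. Ndufa3 was at 4.56 in 1 water-treated control and 0 in the other 3, and at 9.42 in 1 water-treated mouse labelled knockout and 0 in the other 4. Atp5b was at 756 in 1 DSS-treated mouse labelled knockout, against 683 to 691 in the other 3.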

How the results depend on the processing

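No subunit gene was called between genotypes under any setting run. In the water comparison 73 of 78 estimates were above 0, with 65 to 73 when 1 mouse was left out and 38 with quantile normalization. In the DSS comparison it was 22 of 77, with 14 without DSS-treated control 2 and 50 without DSS-treated control 3. Replicate numbers did not pair the mice (mean correlation 0.035 with water and -0.128 after DSS). The fit with the replicate block used only mice whose number occurred in both genotypes, and called 0 subunit genes in both treatments. At an unadjusted p under 0.05 were 11 and 1 subunit genes, against 616 of 11039 and 171 of 10936 genes tested.

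The median log2 difference between DSS and water changed sign with the scaling, and the cause was not tested. In controls (-0.04 as reported) it was 0.318 on TPM as deposited and 0.165 at the same total. It was 0.184 at the same total without immunoglobulin and mitochondrially encoded genes, and 0.406 with quantile normalization. By rank it was 0.532 percentile points, with GC centring 0.061 and in females only 0.056. Over all genes these settings gave, in the same order, 0.321, 0.192, 0.208, 0.182, 1.98 percentile points, 0.039 and 0.014. With 1 mouse left out, the subunit median was -0.147 (without DSS-treated control 3) to 0.032 (without DSS-treated control 2). It was 0.0084 without water-treated control 1 and 0.019 without DSS-treated control 1. In mice labelled knockout (-0.21 as reported) the subunit median was 0.145, 0.357, 0.125, 0.335 and 0.550 under the same 5 scalings. It was -0.277 to -0.186 when 1 mouse was left out. Over all genes the 5 scalings gave 0.310, 0.483, 0.293, 0.176 and 1.78 percentile points. Except with quantile normalization, the subunit median in these mice was below that of all genes.

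Counts without overlap moved as well. In controls 29, 16, 18 and 32 genes were higher as deposited, at the same total, at that total without those genes and with quantile normalization, and 1 and 1 were lower under the former pair. Of all genes 31%, 17.1%, 18.6% and 19.0% were higher under these 4 scalings, and 8.12% and 9.18% were lower under the former pair. GC centring gave 7 higher and females only 20, where 12.4% and 18.4% of all genes were. Leaving out 1 mouse gave 3 to 10 higher, the most without water-treated control 1, and 3 to 27 lower, the most without DSS-treated control 3. Of all genes 13.2% were higher without water-treated control 1 and 25.9% lower without DSS-treated control 3. Over all mice left out these shares were 12.2% to 25.0% higher and 15.0% to 25.9% lower. In mice labelled knockout the same 4 scalings gave 15, 17, 16 and 30 higher, where 31.4%, 35.2%, 30.2% and 25.2% of all genes were, and 4, 0, 8 and 7 lower, where 10.1%, 6.62%, 10.8% and 12.9% were. GC centring gave 13 lower, where 14.7% of all genes were. Females only gave 4 higher and 26 lower, against 21.8% and 22.9% of all genes. Leaving out 1 mouse gave 2 to 3 higher and 25 to 30 lower. With any 1 mouse left out, at least 18.4% of all genes were higher, and 18.7% to 20.8% were lower.

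Of the named genes without overlap on rescaled TPM, the difference turned in controls for Cox7a2l (0.092 as deposited). In mice labelled knockout it turned as deposited for Ndufb9 (0.0088), Cox4i1 (0.091) and Sdhb (0.045). At the same total it turned for Ndufb9 (0.222), Uqcrh (0.208), Uqcrc1 (0.074), Cox8a (0.163), Cox4i1 (0.304), Cox7a2l (0.144) and Sdhb (0.257). With GC centring it turned for Cox8a (0.098), Cox4i1 (0.184), Sdhb (0.015) and Uqcrc2 (-0.056). Of the named genes whose groups overlapped, GC centring turned the difference of 9 in controls and 6 in mice labelled knockout. TPM keeps no depth, so no limit of detection can be given.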
